A study of Mus musculus with 5 samples.

Results

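The Slc25 genes encode the mitochondrial carrier family, and 46 of the 22180 gene symbols measured in reperfused mouse hearts carried a name of this series. A gene was counted when its symbol was Slc25a followed by a number and a probe of the array was annotated with that symbol alone. Each of the 46 had exactly 1 such probe (0 had several), so no choice between probes was needed. One further annotation entry joined Slc25a35 to the neighbouring gene Rangrf and was left out.

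Hearts came from wild-type C57Bl6J mice at zeitgeber time 12 (hours after lights on) and were perfused outside the body on a Langendorff apparatus. After 20 min of stabilisation every heart went through 20 min without flow and 20 min of reperfusion, and was then frozen. The antagonist group (n = 3 hearts) came from mice that had received an antagonist of REV-ERB alpha into the peritoneal cavity, at 10 µM as the labels put it, 4 h and 1 h before the perfusion. The control group (n = 2 hearts), named sham in the labels, shared the ischemia and reperfusion and lacked the antagonist. Neither the compound nor a vehicle injection is named in the labels, and hearts without ischemia were not analysed here. REV-ERB alpha is a nuclear receptor that represses transcription in step with the circadian clock. The comparison asks how transcripts of the reperfused heart differ when this receptor is blocked beforehand.

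Mitochondrial carriers sit in the inner membrane, which is closed to most solutes, and move nucleotides, phosphate, carboxylates, amino acids, cofactors and ions between the cytosol and the matrix. The protein is a bundle of membrane helices built from a repeated unit, and it exposes its substrate site to one side of the membrane at a time. In heart muscle the ADP/ATP translocases export the ATP made by oxidative phosphorylation, the phosphate carrier supplies its phosphate, the carnitine/acylcarnitine carrier admits fatty acids, and the aspartate/glutamate and oxoglutarate carriers run the malate-aspartate shuttle. A few relatives lie in other membranes, such as the peroxisomal Slc25a17 and the outer membrane protein Slc25a46.

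Array values are log2 expression values made with RMA (robust multi-array average), and a difference is the antagonist mean minus the sham mean on that scale. The median over all probes lay between 3.92 and 3.95 on the 5 arrays. Markers of heart muscle cells had mean values from 8.19 to 12.6, so heart muscle transcripts were present in the tissue labelled heart. Single arrays stood out in each group. Sham replicate 1 was strictly the lowest array for 41% of the 39 carriers tested and for 25.9% of all genes tested. It was strictly the highest for 12.8% of the carriers and for 22.3% of all genes tested, the largest such share over all genes of any array. Antagonist replicate 2 carried fat and atrial transcripts: the mean over 6 adipocyte markers was 6.57 there and at most 5.22 on the other arrays, and the mean over 5 atrial markers was 10.1 and at most 7.84. Some cell type markers had no overlap between the groups. Bmp10, Plin1, Cidea and Slc4a1 lay higher with the antagonist, and Cdh5, Cd68, Lum and Tnni3 lower. Shares were 12.5% of ventricular, 33.3% of brown adipocyte and 20% of atrial, adipocyte, endothelial, macrophage and fibroblast markers tested. Slc4a1 was the only erythroid marker measured. Over all genes tested the share was 12.5%. Values often tie exactly between arrays, as median polish can give, and 28 of the 39 tested carriers had fewer than 5 different values (71.8%, beside 73.9% of all genes tested). In whole tissue, fewer cells of a type and less RNA per cell cannot be told apart.

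The carriers had mean values from 2.65, above 24.6% of all probes, to 11.29. Probes differ in how strongly they bind, so the order given here is that of the values and not of transcript numbers. Slc25a4, the ADP/ATP translocase ANT1 of heart and muscle, had the highest mean over the 5 arrays (11.29), above 99.6% of all probes. It was followed by Slc25a11, the oxoglutarate/malate carrier (10.77), Slc25a5, the translocase ANT2 (10.55), and Slc25a12, the aspartate/glutamate carrier aralar (10.44). The next were the phosphate carrier Slc25a3 (9.68), the aspartate/glutamate carrier citrin, Slc25a13 (9.51), the mitochondrial dynamics protein Slc25a46 (9.29) and the carnitine/acylcarnitine carrier Slc25a20 (9.15). The last of these 8 stood above 97.4% of all probes. By their known roles 7 of the 8, all but Slc25a46, serve adenine nucleotide and phosphate exchange, the malate-aspartate shuttle or fatty acid entry. The glutathione carrier Slc25a39 (8.0), the ATP-Mg/phosphate carrier Slc25a23 (7.71), Slc25a16, which is linked to mitochondrial coenzyme A (7.64), and the pyrimidine nucleotide carrier Slc25a33 (7.46) completed the 12 highest.

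**Figure D1:**
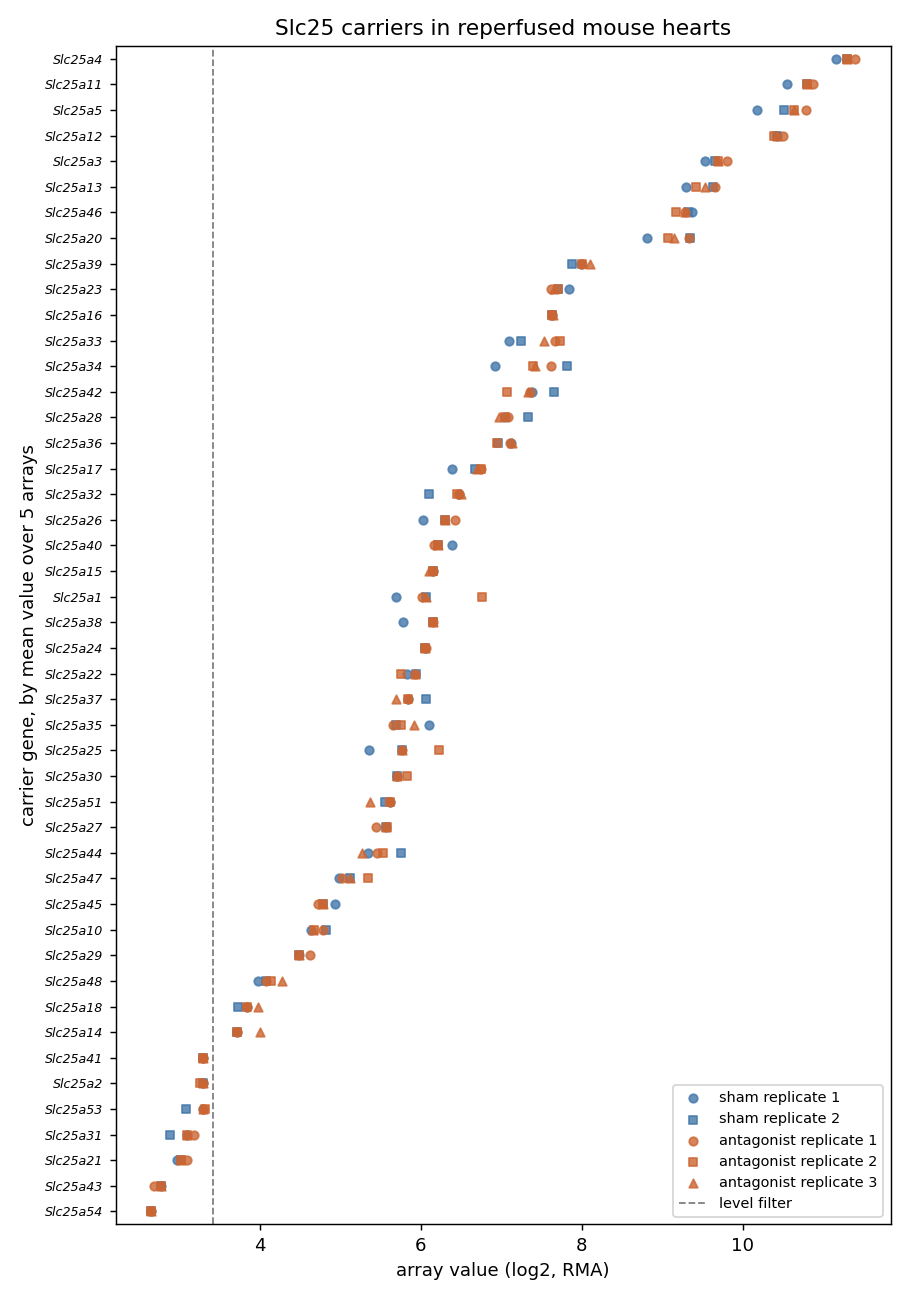
Array value (log2, RMA) of each of the 46 carrier genes on the 2 sham arrays (blue) and the 3 antagonist arrays (orange), ordered by the mean over the 5 arrays; the dashed line is the level filter at 3.42. Slc25a4 has the highest mean (11.29) and Slc25a54 the lowest (2.65), and 7 genes lie left of the line.

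Below 3.42, the 40th percentile of all probes, lay 7 carriers, which were not tested. They were Slc25a41, an ATP-Mg/phosphate carrier, the ornithine carrier Slc25a2, Slc25a53, the germ cell translocase Slc25a31, the oxodicarboxylate carrier Slc25a21, Slc25a43 and Slc25a54. Slc25a31 measured 3.10 and 2.89 in sham and 3.19, 3.10 and 3.10 with the antagonist. Slc25a41 and Slc25a54 each gave a single value on all arrays (3.29 and 2.65). Values this low have no detection call behind them, and the genes may or may not be expressed. Just inside the filter were the uncoupling protein relative Slc25a14 (UCP5; mean 3.77) and the glutamate carrier Slc25a18 (3.85), and Slc25a41 was the nearest outside it.

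No carrier passed the test between antagonist and sham hearts. With limma and Benjamini-Hochberg adjustment over all 15294 genes tested, 0 of the 39 carriers and 0 genes in all (0%) had an adjusted p under 0.05, and the smallest adjusted p of a carrier was 0.64. At an unadjusted limma p under 0.05 there was 1 carrier, Slc25a33, where 4.6% of all genes tested were under that limit. The difference was above 0 for 25 carriers and below 0 for 14, with a median of 0.044 and a range from -0.26 to 0.48. Over all genes tested 7294 (47.7%) were above 0 and 7078 below, and the median was 0. A further 922 of those genes had a single value on all arrays, as 0 of the tested carriers did.

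The groups did not overlap for 7 carriers, which is 17.9% of the 39 tested, where 12.5% of all genes tested had this property. In 5 of them each antagonist value lay above both sham values (6.19% of all genes tested): Slc25a33, Slc25a5, Slc25a17, Slc25a3 and Slc25a39. In the other 2, Slc25a42 and Slc25a46, each antagonist value lay below both sham values (6.33% of all genes tested). All 7 were among the 20 carriers with the highest values, a division made after the values were seen. Of these 20 carriers 35% had groups apart, beside 17.6% of all genes tested at or above the level of the 20th carrier. Of the other 19 tested carriers 0% had this property, beside 9.57% of the genes tested below that level. The property was thus commoner at high values in the whole table too. Because the division followed the values, the steepness among the carriers cannot be compared with that over all genes. Ties were rarer at high values. Fewer than 5 different values were seen for 60% of the upper 20 carriers and 84.2% of the other 19. Over all genes tested the shares were 59.2% and 82.4%.

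**Figure D2:**
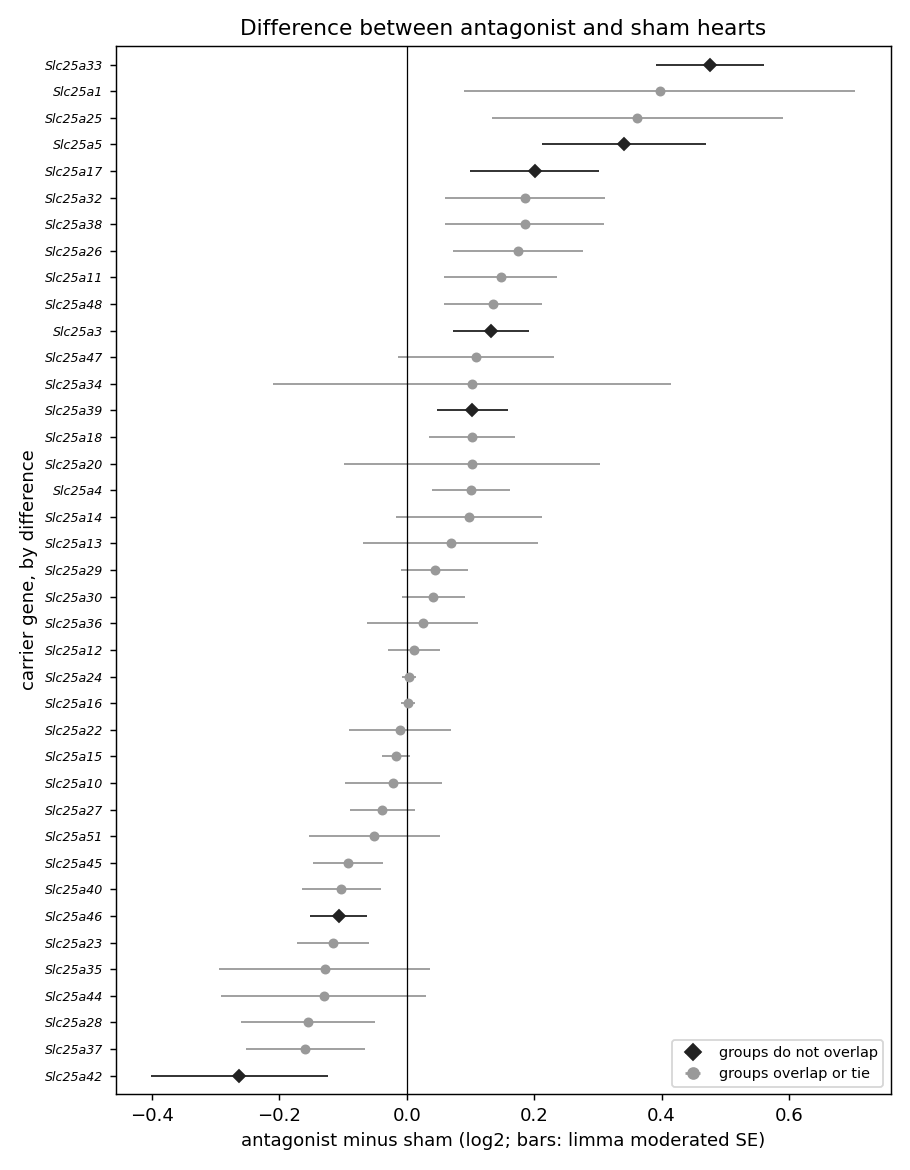
Difference between antagonist (n = 3) and sham (n = 2) hearts in log2 units for the 39 tested carriers, ordered by size, with limma's moderated standard error as bars; dark diamonds mark genes whose groups do not overlap. Slc25a33 is at the top (0.48) and Slc25a42 at the bottom (-0.26), and no gene passed the adjustment over all genes.

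Among the carriers of cofactors and nucleotides, Slc25a33 showed the largest difference of the 39 tested genes named Slc25a. Its product imports pyrimidine nucleotides into the matrix, where they serve the synthesis of mitochondrial DNA and RNA. The sham hearts measured 7.10 and 7.24 and the antagonist hearts 7.67, 7.74 and 7.53. The highest sham value and the lowest antagonist value were thus well separated, and the difference of 0.48 ± 0.085 (SE) corresponds to 1.39-fold. It had rank 134 of 15294 by unadjusted p (0.0064, limma; adjusted p = 0.64). Leaving out any array in turn kept the difference between 0.40 and 0.55.

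The other carriers of this group went both ways. Slc25a17, the peroxisomal cofactor carrier, measured 6.38 and 6.68 in sham and 6.75, 6.75 and 6.71 with the antagonist, a difference of 0.20 ± 0.10 (SE; limma adjusted p = 0.64). The antagonist hearts lay close together just above sham replicate 2, and against that heart alone the difference was 0.054. Slc25a42, which brings coenzyme A into the matrix, had the lowest difference of these 39 genes. It measured 7.38 and 7.65 in sham and 7.35, 7.08 and 7.33 with the antagonist (-0.26 ± 0.14, SE; 0.83-fold; limma adjusted p = 0.64). Antagonist replicates 1 and 3 lay just below sham replicate 1, so the gap between the groups was narrow. The difference was -0.12 without sham replicate 2 and -0.17 without antagonist replicate 2, the lowest array for this gene. Slc25a51, which carries NAD into mitochondria, measured 5.62 and 5.55 in sham and 5.62, 5.62 and 5.37 with the antagonist, and its groups overlapped (-0.051 ± 0.10, SE). Slc25a16 had the same value on 4 arrays (7.63) and 7.64 on antagonist replicate 3. Of the 8 carriers in this group 6 had a positive difference (75%, beside 47.7% of all genes tested). Among them were the folate and flavin carrier Slc25a32 (0.19), the S-adenosylmethionine carrier Slc25a26 (0.17) and the second pyrimidine nucleotide carrier, Slc25a36 (0.025), whose groups overlapped. Without sham replicate 2 the difference of Slc25a32 was 1e-04, and without sham replicate 1 that of Slc25a26 was 0.043.

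Promoter sequence is shown for 3 of the carriers whose antagonist values lay above sham: the 2 with the largest such difference and Slc25a39, the only one of the 5 with a receptor half-site in its window. Each is the 250 bases before the transcription start in RefSeq (assembly GRCm38.p6), written 5′ to 3′ on the gene's strand, with motif matches in capitals. The windows are chr4:149774268-149774517 (minus strand) for Slc25a33, chrX:36795347-36795596 (plus strand) for Slc25a5 and chr11:102407518-102407767 (minus strand) for Slc25a39.
Slc25a33: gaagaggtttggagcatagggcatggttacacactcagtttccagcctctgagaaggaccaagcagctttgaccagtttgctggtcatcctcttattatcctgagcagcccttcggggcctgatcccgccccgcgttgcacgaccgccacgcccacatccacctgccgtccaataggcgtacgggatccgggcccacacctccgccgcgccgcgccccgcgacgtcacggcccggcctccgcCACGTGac
Slc25a5: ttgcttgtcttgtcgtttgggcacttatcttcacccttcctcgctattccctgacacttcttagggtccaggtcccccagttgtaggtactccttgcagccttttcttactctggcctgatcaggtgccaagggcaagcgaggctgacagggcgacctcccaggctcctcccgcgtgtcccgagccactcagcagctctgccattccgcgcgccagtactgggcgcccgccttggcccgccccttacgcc
Slc25a39: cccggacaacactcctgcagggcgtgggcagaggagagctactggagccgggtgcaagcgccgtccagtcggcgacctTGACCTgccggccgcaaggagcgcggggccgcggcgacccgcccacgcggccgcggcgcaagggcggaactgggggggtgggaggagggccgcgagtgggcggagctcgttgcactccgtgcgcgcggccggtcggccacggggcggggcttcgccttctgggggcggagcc
The capitals in Slc25a33 mark CACGTG, the E-box hexamer bound by CLOCK and BMAL1 among other factors, 8 to 3 bases before the start. Those in Slc25a39 mark AGGTCA on the opposite strand, the half-site of REV-ERB and many other nuclear receptors, 172 to 167 bases before the start.

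Over the 46 promoter windows found for 36 of the carriers, AGGTCA on either strand occurred in 4 windows (8.7%), beside 14% of all 32851 windows. The 4 belonged to Slc25a34, Slc25a39, Slc25a45 and Slc25a47. The longer motif TCAAGGTCA, bound by the ERR receptors and containing AGGTCA, was in 0 carrier windows and 0.387% of all windows, and the consensus motif of the nuclear respiratory factor NRF1 in 0 and 0.782%. CACGTG, a motif added after the values were seen, was in 8 carrier windows of 7 genes (17.4%), beside 6.02% of all windows. The 7 were Slc25a1, Slc25a13, Slc25a14, Slc25a15, Slc25a31, Slc25a33 and Slc25a36. Of these 7, Slc25a31 was not tested, and of the 6 tested Slc25a33 had groups apart (12.5% of all genes tested). Carrier windows had a median GC content of 57.4%, and all windows 52.4%, and the part of base composition in these shares was not tested. A match describes letters and not binding.

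Of the carriers of adenine nucleotides and phosphate, 5 of 6 tested had positive differences (83.3%, beside 47.7% of all genes tested), with a median of 0.12. Slc25a5, which encodes ANT2, the translocase found in many tissues, measured 10.18 and 10.51 in sham and 10.79, 10.64 and 10.64 with the antagonist. The groups did not overlap and the difference was 0.34 ± 0.13 (SE), or 1.27-fold (limma adjusted p = 0.64). With sham replicate 1 left out it was 0.17. Slc25a4, which encodes ANT1, the main translocase of heart muscle, measured 11.16 and 11.30 in sham and 11.40, 11.30 and 11.30 with the antagonist. Sham replicate 2 tied with 2 antagonist hearts, so the groups touched (0.10 ± 0.061, SE). Within each heart the value of Slc25a5 minus that of Slc25a4 was -0.98 and -0.78 in sham and -0.61, -0.66 and -0.66 with the antagonist. This contrast, chosen after the values were seen, shows unequal differences of the 2 genes and is given without a test.

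Slc25a3 supplies phosphate for ATP synthesis and also carries copper. It measured 9.54 and 9.66 in sham and 9.80, 9.70 and 9.69 with the antagonist, without overlap and with a difference of 0.13 ± 0.060 (SE; limma adjusted p = 0.64). The lowest antagonist heart lay only slightly above the higher sham heart. Among the ATP-Mg/phosphate carriers, which adjust the matrix pool of adenine nucleotides, Slc25a23 was the 1 with a negative difference. It measured 7.85 and 7.71 in sham and 7.62, 7.71 and 7.66 with the antagonist (-0.12 ± 0.056, SE), and sham replicate 2 tied with antagonist replicate 2. Slc25a24 gave 6.05 on 4 arrays and 6.06 on the fifth.

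**Figure D3:**
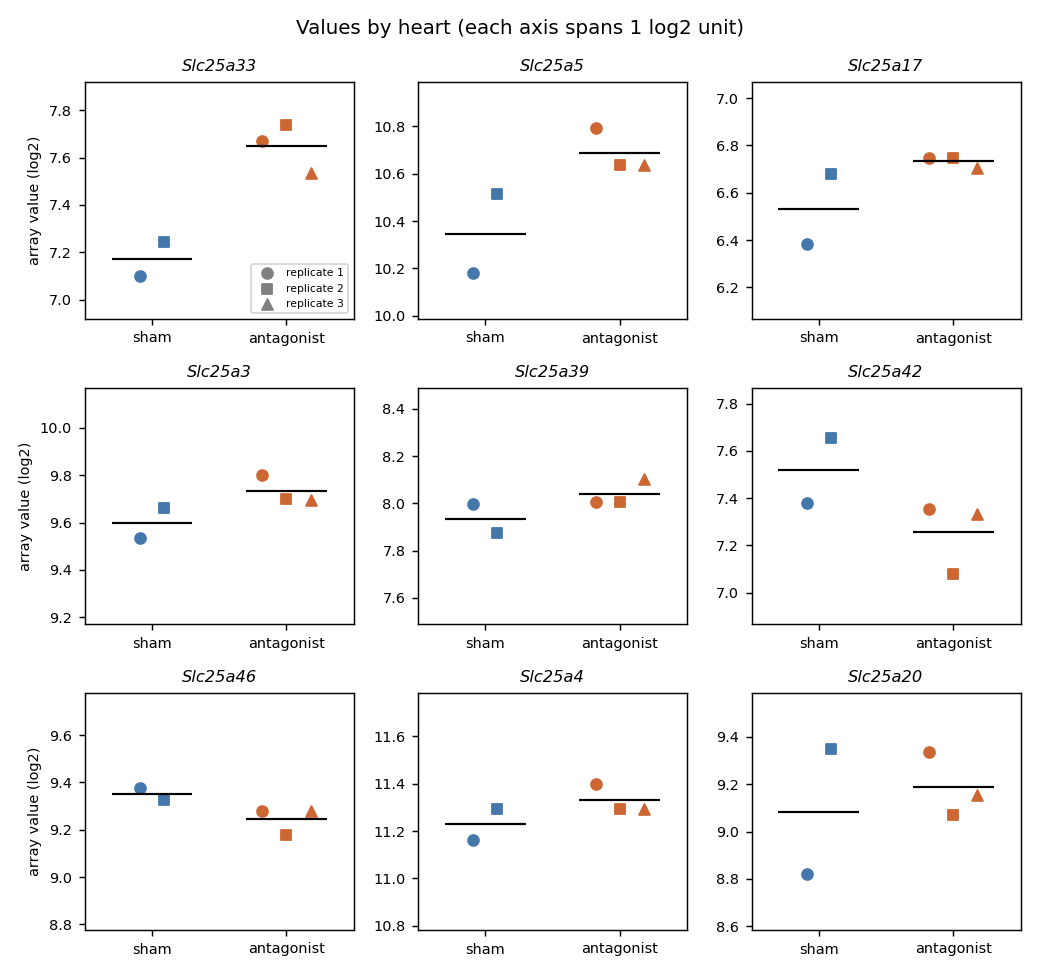
Array value (log2) of 9 carriers in each sham (blue) and antagonist (orange) heart, with the group mean as a line and an axis of the same width in each panel. The antagonist points of Slc25a33 (7.53 to 7.74) stand clear of the sham points (7.10 and 7.24), while for Slc25a4 and Slc25a20 they lie around or among them.

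Slc25a25 and Slc25a1 had large differences that rested on antagonist replicate 2 and sham replicate 1, and both are given because their values were noticed. Slc25a25, another ATP-Mg/phosphate carrier, measured 5.36 and 5.77 in sham and 5.77, 6.23 and 5.77 with the antagonist. Slc25a1, the citrate carrier that feeds cytosolic acetyl-CoA and lipid synthesis, measured 5.70 and 6.06 in sham and 6.01, 6.76 and 6.06 with the antagonist. In both genes antagonist replicate 2 was highest and sham replicate 1 lowest, with the remaining arrays tied or close together. The differences of 0.36 ± 0.23 and 0.40 ± 0.31 (SE) became 0.21 and 0.16 without antagonist replicate 2, and 0.16 and 0.21 without sham replicate 1. On antagonist replicate 2 4 of 6 adipocyte markers, 3 of 4 brown adipocyte markers and 4 of 5 atrial markers were strictly highest. The adipocyte mean there was 6.57, against 4.97 to 5.22 in the other antagonist hearts and 4.97 to 5.03 in sham. Adipoq, a defining fat cell gene, measured 4.83 on antagonist replicate 2 and at most 3.05 elsewhere. The part of these cells in the values of Slc25a1 and Slc25a25 was not tested.

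Carriers of the malate-aspartate shuttle had groups that overlapped or tied. The shuttle moves reducing equivalents from cytosolic NADH into the matrix. Slc25a12, the calcium-sensitive aralar, measured 10.43 in both sham hearts and 10.50, 10.39 and 10.43 with the antagonist (0.012 ± 0.040, SE). Slc25a13, its relative citrin, measured 9.30 and 9.64 in sham and 9.66, 9.42 and 9.53 with the antagonist (0.069 ± 0.14, SE), and 2 of the antagonist hearts lay between the sham hearts. Slc25a11, which exchanges oxoglutarate for malate, measured 10.56 and 10.80 in sham and 10.87, 10.80 and 10.80 with the antagonist (0.15 ± 0.088, SE). There sham replicate 2 tied with 2 antagonist hearts and sham replicate 1 was below all of them. The dicarboxylate carrier Slc25a10 ranged only from 4.64 to 4.82, with a difference of -0.021.

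Slc25a20, the carrier through which acylcarnitines reach beta-oxidation, varied more between the sham hearts than between the groups. It measured 8.82 and 9.35 in sham and 9.34, 9.07 and 9.15 with the antagonist, so that all antagonist hearts lay between the sham hearts. The difference was 0.10 ± 0.20 (SE; limma adjusted p = 0.84), and without sham replicate 1 it was -0.16.

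Of the 8 tested amino acid carriers 0% had groups apart, beside 12.5% of all genes tested, and the differences ranged from -0.13 to 0.19. At the upper end was the glycine carrier Slc25a38, which is needed for heme synthesis. It gave 6.15 in 4 hearts and 5.78 in sham replicate 1, so the whole difference rested on that array. The lower end was Slc25a44, a carrier of branched-chain amino acids, which ranged from 5.27 to 5.75 with overlapping groups. The glutamate carriers Slc25a18 (0.10) and Slc25a22 (-0.010), the ornithine carrier Slc25a15 (-0.017) and the basic amino acid carrier Slc25a29 (0.044) made up the rest with both aspartate/glutamate carriers.

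Iron and glutathione carriers divided by gene. The mitoferrins bring iron to the matrix for heme and iron-sulfur clusters. Slc25a37, mitoferrin 1, which is abundant in red cell precursors, measured 5.84 and 6.06 in sham and 5.84, 5.84 and 5.70 with the antagonist (-0.16 ± 0.094, SE; limma adjusted p = 0.64). Slc25a28, mitoferrin 2, measured 7.05 and 7.34 in sham and 7.09, 7.05 and 6.97 with the antagonist (-0.16 ± 0.11, SE). In both genes sham replicate 2 was highest and sham replicate 1 lay among the antagonist hearts, and without sham replicate 2 the differences were -0.048 and -0.011. Of 7 erythroid markers 1 was measured, Slc4a1, and it ranged from 4.28 to 4.38.

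Slc25a39, which carries glutathione into mitochondria, measured 8.0 and 7.88 in sham and 8.01, 8.01 and 8.10 with the antagonist (0.10 ± 0.056, SE; limma adjusted p = 0.64). The groups did not overlap, although sham replicate 1 was just below 2 equal antagonist values. Its close relative Slc25a40 measured 6.39 and 6.22 in sham and 6.16, 6.22 and 6.22 with the antagonist (-0.10 ± 0.061, SE), and its groups tied.

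The 3 relatives of the uncoupling proteins differed little. Slc25a14 gave 3.72 on 4 arrays and 4.01 on antagonist replicate 3, Slc25a27 (UCP4) ranged from 5.44 to 5.58, and the kidney carrier Slc25a30 gave 5.71 on 4 arrays and 5.83 on antagonist replicate 2.

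Of the remaining carriers, Slc25a46 had groups apart (16.7% of the 6 tested, beside 12.5% of all genes tested). Its product lies in the outer membrane and takes part in mitochondrial fission and in the contact of the membranes. It measured 9.38 and 9.33 in sham and 9.28, 9.18 and 9.28 with the antagonist, a difference of -0.11 ± 0.045 (SE; 0.93-fold; limma adjusted p = 0.64). The difference kept its sign without any 1 array, from -0.13 to -0.073. Slc25a48, which is linked to choline import, measured 3.98 and 4.09 in sham and 4.09, 4.14 and 4.28 with the antagonist (0.14 ± 0.077, SE). Slc25a45, whose role is less defined, measured 4.93 and 4.79 in sham and 4.73, 4.79 and 4.79 with the antagonist (-0.092 ± 0.055, SE). Slc25a47 measured 4.98 and 5.12 in sham and 5.02, 5.35 and 5.12 with the antagonist (0.11 ± 0.12, SE), and its groups overlapped. Slc25a34 and Slc25a35 had sham hearts far apart (6.93 and 7.82, and 6.11 and 5.69), with all antagonist values of Slc25a34 between them and those of Slc25a35 from 5.65 to 5.91.

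Many carriers' differences depended on which sham heart they were measured against, and others on 1 antagonist heart. Without some array, sham or antagonist, the difference fell by more than 1.5 times or turned for 37 of the 39 carriers, the other 2 being Slc25a33 and Slc25a46. For example, the sham hearts tied for Slc25a14 and Slc25a30, and their differences became 0 without antagonist replicate 3 and antagonist replicate 2, respectively. The same count over all genes tested was not made, so this dependence is not shown to be particular to the carriers. Sham replicate 1 was strictly lowest for 15 of the 25 carriers with positive differences. A low sham value favours a positive difference, so this count follows in part from the choice of carriers. The matching share over all genes was not computed. Against sham replicate 2 alone, 22 carriers were higher with the antagonist, 16 lower and 1 equal, with a median of 0.012. Against sham replicate 1 alone, 27 were higher and 12 lower, with a median of 0.046. Slc25a34 moved most, from -0.34 to 0.55, and Slc25a33 was the 1 carrier among the 39 with a difference above 0.4 against each sham heart. With 1 sham heart left out, limma also called genes: 1319 of 15294 (8.62%) and the carrier Slc25a32 without sham replicate 1, and 2058 (13.5%) and the carriers Slc25a17 and Slc25a38 without sham replicate 2. In Slc25a32, Slc25a17 and Slc25a38 the remaining sham value stood against antagonist values with very little spread among them. These were 6.10 against 6.45 to 6.5, 6.38 against 6.71 to 6.75, and 5.78 against 6.15 in each.

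**Figure D4:**
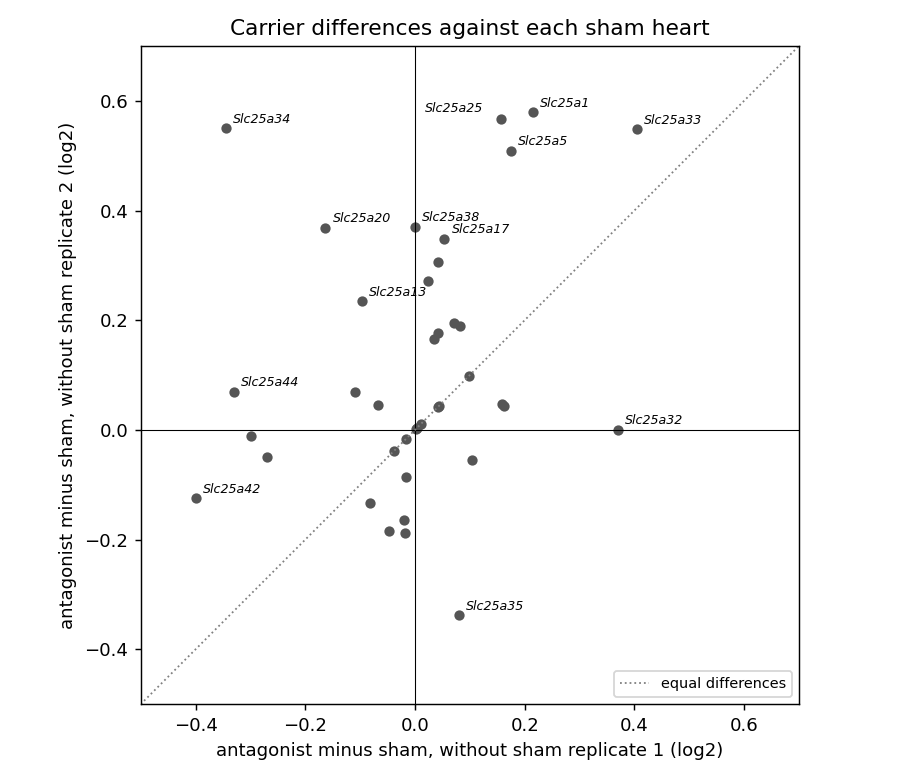
Difference of each of the 39 tested carriers (antagonist minus sham, log2) without sham replicate 1 on the horizontal axis and without sham replicate 2 on the vertical axis; points on the dotted line have equal differences. Slc25a33 lies high on both axes (0.40 and 0.55), while Slc25a34 and Slc25a20 lie on opposite sides of 0.

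Other genes of mitochondrial transport and of the carriers' pathways were read from the same fit, as 8 lists with 51 tested entries. None of the 51 passed (0 called, 32 higher and 18 lower), and for all 8 lists the mean over members was lowest on sham replicate 1. The members strictly lowest there ranged from 1 of 4 (family members with other names) to 4 of 4 (carnitine system). In the carrier family members that bear other names, Mtch1 (0.16 ± 0.11, SE) and Mtch2 (0.036 ± 0.030, SE), outer membrane proteins of this fold, had the smallest p. Ucp1, the uncoupling protein of brown fat, measured 6.49 on antagonist replicate 2 and at most 3.47 elsewhere. Ucp3, the muscle uncoupling protein, measured 6.20 and 6.77 in sham and 6.58, 5.70 and 6.01 with the antagonist.

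Of 16 tested transporters of the inner membrane outside the family, 7 were higher and 8 lower, with a median of -0.0076. Sfxn2, a sideroflexin, measured 4.57 and 4.85 in sham and 5.09 in each antagonist heart (0.38 ± 0.096, SE; limma adjusted p = 0.64). Micu2, a regulator of the calcium uniporter, measured 8.21 and 8.19 in sham and 8.06, 7.89 and 8.03 with the antagonist (-0.20 ± 0.062, SE; limma adjusted p = 0.64). Both had groups apart, as did Micu3, which was lower with the antagonist. Of this list 18.8% had groups apart, beside 12.5% of all genes tested. Without antagonist replicate 2 the difference of Micu2 was -0.15. Vdac3, a channel of the outer membrane, also had groups apart, with 11.97 and 11.98 in sham and 12.06, 12.04 and 12.09 with the antagonist (0.089 ± 0.019, SE). It was 1 of the 5 genes in its list (20%, beside 12.5% of all genes tested). With the mean of all its probes, Vdac3 differed by only 0.0032. Vdac2 differed by 0.14 ± 0.084 (SE). The 10 genes of the machinery that imports carriers into the inner membrane were evenly divided, 5 higher and 5 lower, led by Agk (0.086) and Timm9 (-0.052).

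Enzymes on either side of the carriers gave small differences. Got1, the cytosolic aspartate aminotransferase of the malate-aspartate shuttle, measured 11.68 and 11.64 in sham and 11.76, 11.72 and 11.85 with the antagonist, without overlap (0.11 ± 0.049, SE; limma adjusted p = 0.64), and Mdh1 differed by 0.075 ± 0.055 (SE). Of the 4 shuttle enzymes 25% had groups apart, beside 12.5% of all genes tested. The share was 0% in the carnitine, energy transfer, citrate, carrier import and other-name lists. In the carnitine system Crat differed by 0.052 and Cpt2 by 0.040. In the energy transfer list Nme4 differed by 0.057 and Ckm by 0.23 (0.087 with the mean of all its probes), and among citrate and acetyl-CoA enzymes Acly differed by 0.18 and Cs, citrate synthase, by 0.17. Cs measured 10.88 and 11.35 in sham and 11.33, 11.25 and 11.26 with the antagonist, so that sham replicate 1 was lowest and sham replicate 2 highest, much as for Slc25a20.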

How the data were processed

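Affymetrix whole-transcript arrays were hybridised with RNA of 5 hearts, with biotinylated single-stranded DNA made from 300 ng of RNA, per the labels' protocols. The authors deposited log2 values that they had computed with RMA, per the submitters' processing notes. The RMA version and probe set library are not given in the sources used. Of 41345 probes, 23521 had 1 gene symbol in the platform annotation, 1814 had several and 16010 were unlisted. Per symbol the probe with the highest mean was kept, and 15294 genes at or above the 40th percentile (3.42) were tested.

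Antagonist and sham arrays were set against each other in a linear model without covariates (limma 3.58.1, R 4.3.3; lmFit, then eBayes; two-sided), and p-values were adjusted by Benjamini-Hochberg across every gene tested. The script was tested on simulated data. The labels call the arrays biological replicates, and their number limits the precision. Members, lists and tests were chosen with earlier results of these data known. Values by array are given for the 12 highest carriers, the 6 of smallest p per direction, those with groups apart and a difference of at least 0.2, and 10 carriers chosen for their roles; from each further list the 2 genes of smallest p are named. Other genes given by array, and those of the marker lists, were chosen after their values were seen. Promoter windows of RefSeq were matched by Entrez Gene identifier, and protein features were not analysed here.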

Additional observations from a re-analysis of the deposited data

How the results depend on the processing

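The count of 0 genes and 0 carriers called by limma was the same with no level filter, the 60th percentile filter, a second quantile normalization, centred arrays, the mean of all probes, a robust eBayes or one with a trend, weighting of arrays, the replicate block and genes with 5 different values. Leaving out 1 array gave 0 to 2058 genes and 0 to 2 carriers; the calls came only without a sham array. Carriers with groups apart numbered 7 (17.9%, beside 12.5% of all genes tested), but 12 after the second quantile normalization (30.8%, beside 24%) and 11 with centred arrays (28.2%, beside 24.7%), which break ties. They numbered 4 of 11 among genes with 5 different values (36.4%, beside 31%). With 1 array left out there were 7 to 23, with 41% beside 42.1% without sham replicate 1 and 59% beside 52.7% without sham replicate 2. The median difference of 0.044 became 0.069 among genes with 5 different values and 0.0094 to 0.067 with 1 array left out. With the replicate number as a block, a numbering that the labels do not describe as pairs, the median was 0.056 and the signs of Slc25a36 (-0.011), Slc25a51 (0.035) and Slc25a10 (0.0010) turned. After the second quantile normalization those of Slc25a16 (-0.011) and Slc25a24 (-0.010) turned. The cause was not tested.

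With 1 array left out, signs also turned for these genes, whose ranges were -0.020 to 0.037 for Slc25a12, -0.097 to 0.24 for Slc25a13, -0.16 to 0.37 for Slc25a20, -0.34 to 0.55 for Slc25a34, -0.054 to 0.10 for Slc25a36, -0.067 to 0.049 for Slc25a22, -0.34 to 0.080 for Slc25a35, -0.093 to 0.035 for Slc25a51, -0.062 to 0.0044 for Slc25a27, -0.33 to 0.070 for Slc25a44 and -0.11 to 0.068 for Slc25a10. Outside the family they were -0.0055 to 0.077 for Mtch2, -0.0015 to 0.15 for Mdh1, -0.013 to 0.12 for Crat, -0.12 to 0.20 for Cpt2, -0.22 to 0.68 for Ckm and -0.065 to 0.41 for Cs. In all, 21 of the 39 carriers kept a difference of the same sign under every alternative run. The sign turned for 13, and for 5 (Slc25a14, Slc25a15, Slc25a29, Slc25a30 and Slc25a38) the difference was 0 under some alternative. No carrier had a second probe to compare, so the mean of all probes left each difference as it was. The level filters, the robust and trend eBayes and the choice of genes with 5 different values also left it unchanged. The sign could turn only under the other runs.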
